A study of Homo sapiens with 4 samples.

Results

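The 8 genes described here encode proteins of DNA mismatch repair and the catalytic subunits of the leading- and lagging-strand DNA polymerases. They were taken by name from a table of 26364 gene symbols: MSH3, MSH6, PMS1, PMS2, MLH3, EXO1, POLE and POLD1. All 8 passed the filter on low counts, which left 15599 genes for testing. The cells were Ishikawa, a human endometrial adenocarcinoma line, with the Y537S change in ESR1, the gene for estrogen receptor alpha. All 4 libraries came from mutant cells kept for at least 5 days in hormone-deprived medium, and no wild-type cells were compared. The DMSO group (2 libraries) received the vehicle for 8 h, and the E2 group (2 libraries) received 10 nM estradiol (E2), the main natural estrogen, for 8 h. The labels name 2 clones of the mutant line. The data columns carry the tags A4 and B212, which no label mentions, so the libraries are named here by tag and treatment, and whether a tag is one clone is not stated.

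Mismatch repair removes bases that the replicating polymerases pair wrongly. The MutS dimer that holds MSH6 recognises mispaired bases and short loops, and the one that holds MSH3 recognises longer loops. PMS2, PMS1 and MLH3 belong to MutL dimers; the one with PMS2 nicks the new strand, EXO1 removes it, and DNA polymerase delta fills the gap. POLE and POLD1 are the catalytic subunits of polymerases epsilon and delta, and each carries a proofreading exonuclease. In endometrial carcinoma, loss of mismatch repair gives microsatellite instability, and changes in the POLE exonuclease domain mark a class of tumors with very many mutations. Gene counts measure the amount of RNA and do not show whether the proteins are intact.

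Because many replication and repair genes are targets of E2F, a family of cell cycle transcription factors, the promoter windows of the 8 genes were searched for the E2F words TTTGGCGC, TTTCCCGC and TTTCGCGC on both strands. All 8 genes matched the RefSeq promoter table (build GRCh38.p14), with 14 windows of 250 bases before and 50 bases after a start site. At least 1 word was found in 4 of the 14 windows, those of MSH3, MSH6, EXO1 and POLE, and in 2.74% of 35116 windows of all genes in that table. The estrogen response element, GGTCA and TGACC with NNN between them, was in 0 of the 14 windows and in 0.057% of all windows. At so low a share, 0 of 14 says little about these genes. The half-site GGTCA alone was in 6 of the 14 windows and in 37.4% of all windows. The 4 stretches with a word are shown from 120 bases before to 30 bases after the start site, with the words in capitals, because they separate these 4 genes from PMS1, PMS2, MLH3 and POLD1, whose windows hold none.
MSH3, chr5:80654532-80654681, plus strand: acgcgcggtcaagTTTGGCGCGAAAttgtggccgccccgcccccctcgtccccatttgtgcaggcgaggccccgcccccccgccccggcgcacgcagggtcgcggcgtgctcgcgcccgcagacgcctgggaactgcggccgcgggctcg
MSH6, chr2:47783025-47783174, plus strand: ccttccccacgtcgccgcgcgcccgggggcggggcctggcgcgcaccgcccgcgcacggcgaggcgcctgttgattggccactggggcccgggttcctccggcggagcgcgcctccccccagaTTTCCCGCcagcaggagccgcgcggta
EXO1, chr1:241848084-241848233, plus strand: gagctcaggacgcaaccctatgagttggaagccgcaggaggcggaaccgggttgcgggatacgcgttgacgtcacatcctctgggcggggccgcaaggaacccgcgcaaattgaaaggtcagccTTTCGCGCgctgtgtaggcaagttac
POLE, chr12:132687313-132687462, minus strand: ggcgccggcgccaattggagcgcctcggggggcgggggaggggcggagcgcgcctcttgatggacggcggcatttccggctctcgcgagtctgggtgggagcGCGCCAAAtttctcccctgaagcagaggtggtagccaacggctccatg
In MSH3, 2 of the words overlap, one on each strand, and begin 107 and 103 bases before the start. The word in POLE lies 18 bases before the start, on the strand opposite to the gene. In MSH6 and EXO1 it begins at base 4 and base 5 of the transcript. A match describes the sequence only, and binding was not measured here.

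The 4 libraries held 71575816 to 85222856 counts, and a member had 1573 to 10167 counts in a library. Counting error alone was therefore between 0.992% and 2.52% of a value. All 7 epithelial markers (EPCAM, CDH1, KRT8, KRT18, KRT19, PAX8 and MUC1) had at least 10 counts in every library. Their summed level was 2204 to 2343 CPM (counts brought to one common library size, with TMM factors from edgeR) in A4 and 2691 to 2956 CPM in B212. The 6 stromal markers summed to 94.8 and 130.4 CPM in A4 and to 38.0 and 46.0 CPM in B212, most of it COL1A1, and the defining markers CD3E and PECAM1 of immune and endothelial cells were at 0 counts. The 5 immune markers summed to 0.724 to 1.19 CPM and the 4 endothelial markers to 2.30 to 5.11 CPM. In bulk RNA, fewer cells with a transcript and less of it per cell cannot be told apart.

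The first question was how abundant each gene was. Levels between genes were compared per length, as RPKM (the CPM divided by the transcript length in kilobases), with the longest coding transcript of GENCODE 29. EXO1, the exonuclease, was the most abundant member, at 21.7 to 23.6 RPKM over the 4 libraries. MSH3 followed at 15.8 to 16.6 RPKM, PMS1 at 13.1 to 15.9, MSH6 at 12.7 to 15.9 and POLD1 at 13.2 to 15.5. POLE lay at 8.46 to 10.5 RPKM, PMS2 at 7.27 to 8.31 and MLH3 at 5.33 to 5.77. The ranges of MSH3, PMS1 and MSH6 touched each other, as did those of PMS1, MSH6 and POLD1. Within each library MSH6 lay below MSH3 by this length, while the order of the other overlapping pairs changed between libraries. EXO1, POLE, PMS2 and MLH3 did not overlap with any other member. The median gene tested had 6.36 RPKM, and of the 14584 tested genes with a length 78.1% lay below EXO1 against 47.1% below MLH3. With the coding length in place of the transcript length, MSH6 moved to 23.3 to 29.2, above MSH3 at 19.0 to 19.9, and MLH3 to 9.65 to 10.5, above PMS2 at 8.02 to 9.17. The transcript used is 7476 bases long in MSH6 and 7896 in MLH3, of which 4080 and 4359 are coding.

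The members were then set against the other subunits of their complexes. Among the MutL genes, PMS1 was 1.69 to 2.19 times as abundant per length as PMS2. POLE was below POLD1 in every library, with a ratio of POLE to POLD1 of 0.591 to 0.779. Within polymerase epsilon, the small histone-fold subunit POLE3 had 104 to 191 RPKM, which was 10.8 to 22.6 times the level of POLE. The other subunits lay closer to POLE, with POLE2 at 1.76 to 2.46 times and POLE4 at 1.67 to 3.04 times its level. Within polymerase delta, the subunit POLD2 had 65.5 to 89.6 RPKM, 4.72 to 6.36 times the level of POLD1. POLD3 was at 0.603 to 0.877 times POLD1. POLD4, the smallest subunit, was at 3.44 to 3.98 RPKM, or 0.221 to 0.301 times POLD1. These ratios depend on the length used: by coding length POLE3 was at 46.9 to 98.1 times POLE and POLD2 at 6.997 to 9.43 times POLD1. By that length POLD3 lay above POLD1, at 1.59 to 2.32 times its level. For POLD4 the transcript used holds only 96 coding bases of 1486, so no ratio by coding length is given.

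**Figure D1:**
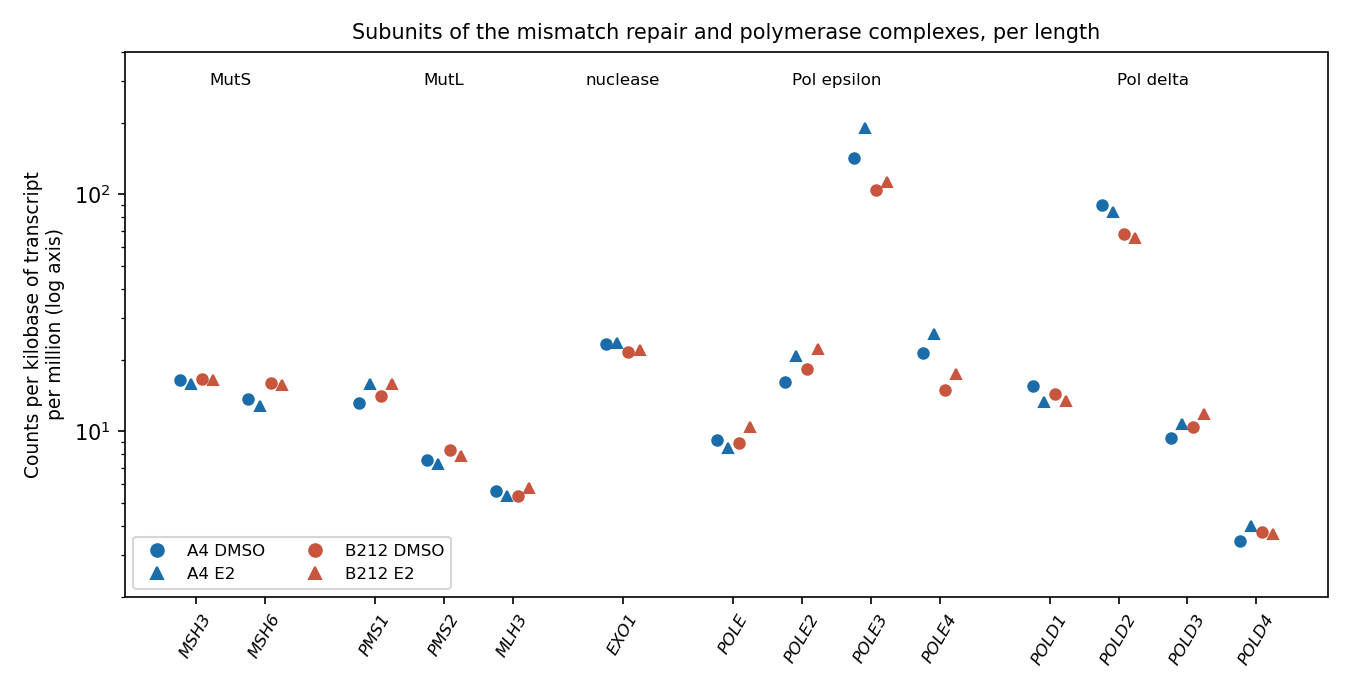
Level of each subunit gene in RPKM (y axis, log scale) for the MutS, MutL, nuclease, polymerase epsilon and polymerase delta genes (x axis). Each symbol is 1 library, blue for A4 and red for B212, circles for DMSO and triangles for E2; POLE3 at 104 to 191 and POLD2 at 65.5 to 89.6 stand above their catalytic subunits, and MSH3 and MSH6 lie between 12.7 and 16.6.

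The second comparison asked how far the members differed between the B212 and A4 libraries, with treatment as a covariate (edgeR's quasi-likelihood test, Benjamini-Hochberg adjustment over all 15599 genes, threshold 0.05). Of the 8 members, 1 was called, MSH6, and it was higher in B212. Among all genes tested, 51% were called (25.2% higher and 25.8% lower), and among the 8458 genes that reached 1000 counts in each library, a group that holds all 8 members, 52.3% were. The median absolute log2 fold change was 0.076 for the members, 0.28 for all genes and 0.20 for the genes that reached 1000 counts. These values describe the list and are not a test of it. Each tag had 1 library per treatment, and no label says that libraries came from separate cultures, so the p-values measure the spread between these 4 libraries only.

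MSH6, which recognises mispaired bases, had 102 CPM in A4 DMSO, 95.1 in A4 E2, 119 in B212 DMSO and 117 in B212 E2. Both B212 libraries were above both A4 libraries. The means were 98.7 ± 5.06 CPM in A4 and 118 ± 1.18 CPM in B212 (SD, n = 2), a 1.20-fold difference. Its log2 fold change was 0.26 ± 0.069 (SE; 95% interval 0.12 to 0.41; edgeR adjusted p = 0.00358). It was 0.22 in the DMSO libraries and 0.30 in the E2 libraries. A correction for transcript length and GC content, fitted across genes, lowered it to 0.16 (edgeR adjusted p = 0.0215). Without the treatment term edgeR gave an adjusted p-value of 0.0686, and in that same fit it was 0.166 without A4 E2, 0.433 without B212 DMSO and 0.361 without B212 E2, with log2 fold changes of 0.20, 0.22 and 0.27. Without A4 DMSO it was called, at 0.31 (edgeR adjusted p = 0.0249).

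Part of the MSH6 count is uncertain. FBXO11, a neighbouring gene, shares 22.5% of the 32-base words of the MSH6 transcript on one strand or the other, and the strand setting of the counting is not given in the sources used here. FBXO11 itself had a log2 fold change of 0.062 ± 0.068 (SE) between the tags. Among 106 genes of the lists described below, the one whose pattern over the 4 libraries lay nearest to MSH6 was BARD1, the partner of BRCA1, at a root mean square difference of 0.024 on the log2 scale. Epithelial markers moved with the same tag: 5 of 7 were called higher in B212, with CDH1 at 0.50 and KRT19 at 1.01 (log2), while COL1A1 was at -1.51. Their part in the MSH6 result was not tested.

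MSH3, which recognises longer loops, was the steadiest member. It had 67.1 CPM in A4 DMSO, 64.85 in A4 E2, 67.8 in B212 DMSO and 67.5 in B212 E2, so its highest value was 1.05 times its lowest. Its log2 fold change between the tags was 0.037 ± 0.072 (SE; 95% interval -0.11 to 0.19). The ratio of MSH6 to MSH3 per length was 0.803 and 0.834 in A4 and 0.952 and 0.962 in B212, with no overlap between the tags. By coding length it was 1.23 and 1.27 in A4 and 1.45 and 1.47 in B212, so which of the 2 genes was more abundant depends on the length used. Of the 32-base words of the MSH3 transcript, 9.51% also occur in transcripts of other genes.

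Among the MutL genes, differences between the tags were small against their errors. PMS2, which carries the endonuclease of its dimer, had 21.5 CPM in A4 DMSO, 20.7 in A4 E2, 23.7 in B212 DMSO and 22.4 in B212 E2. Both B212 values lay above both A4 values, but the log2 fold change of 0.13 ± 0.084 (SE; 95% interval -0.048 to 0.30) was not called. PMS2 is the least certain member, since 47% of its 32-base words occur in transcripts of other genes, 37.5% in PMS2CL alone. The 8 PMS2 copies in the table summed to 946 to 1110 counts, or 50.6% to 65.2% of the PMS2 count of the same library. PMS2CL had 313 (A4 DMSO), 262 (A4 E2), 285 (B212 DMSO) and 334 (B212 E2) counts, and 0 of the 5 copies that passed the count filter were called (0 at an unadjusted p under 0.05 with edgeR).

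PMS1, a MutL subunit with no clear role of its own in repair, had 44.8 CPM in A4 DMSO, 54.26 in A4 E2, 48.1 in B212 DMSO and 54.28 in B212 E2. The tags overlapped, with a log2 fold change of 0.051 ± 0.075 (SE; 95% interval -0.11 to 0.21). MLH3, a MutL subunit that acts in meiotic recombination, had 44.2, 42.1, 42.1 and 45.6 CPM in the same order. Its log2 fold change between the tags was 0.023 ± 0.079 (SE; 95% interval -0.14 to 0.19).

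EXO1 was the member with the most negative value. It had 80.8 CPM in A4 DMSO, 82.1 in A4 E2, 75.3 in B212 DMSO and 76.6 in B212 E2. Both B212 libraries lay below both A4 libraries, by 0.103 and 0.101 on the log2 scale in DMSO and in E2. The log2 fold change was -0.10 ± 0.070 (SE; 95% interval -0.25 to 0.044; edgeR adjusted p = 0.234), so it was not called. After the correction for length and GC it was -0.18 and was called (edgeR adjusted p = 0.0105).

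The polymerase catalytic subunits were not called between the tags, while some of their partners were. POLE had 71.9 CPM in A4 DMSO, 66.3 in A4 E2, 69.6 in B212 DMSO and 82.0 in B212 E2. The B212 E2 library was the highest and the other 3 lay within 66.3 to 71.9, so the tags overlapped. Its log2 fold change was 0.13 ± 0.081 (SE; 95% interval -0.039 to 0.30), and with library size as the only scaling it was 0.20 (edgeR adjusted p = 0.0417). PXMP2, a peroxisomal membrane protein gene next to POLE, was called higher in B212 at 0.30 (log2), chosen here after its value was seen. POLD1 had 54.6, 46.5, 50.7 and 47.2 CPM in the same order, and its log2 fold change was -0.043 ± 0.076 (SE; 95% interval -0.20 to 0.12).

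Of the 10 other genes of the replicative polymerases and primase, 4 were called between the tags, 1 higher and 3 lower in B212, beside 51% of all genes. POLE3 fell from 313 and 418 CPM in A4 to 229 and 247 CPM in B212, a log2 fold change of -0.61 ± 0.078 (SE; edgeR adjusted p = 2.32e-06). POLE4, which pairs with POLE3, was at 26.7 and 32.1 CPM in A4 and 18.6 and 21.7 in B212, a log2 fold change of -0.54. POLD2 was at 193 and 182 CPM in A4 and 147 and 141 in B212, a log2 fold change of -0.38. The primase subunit PRIM1 was higher in B212, at 0.28. POLE2, POLD3 and POLD4 were not called, at 0.13, 0.14 and 0.012. Differences between a catalytic subunit and its partners were not tested.

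**Figure D2:**
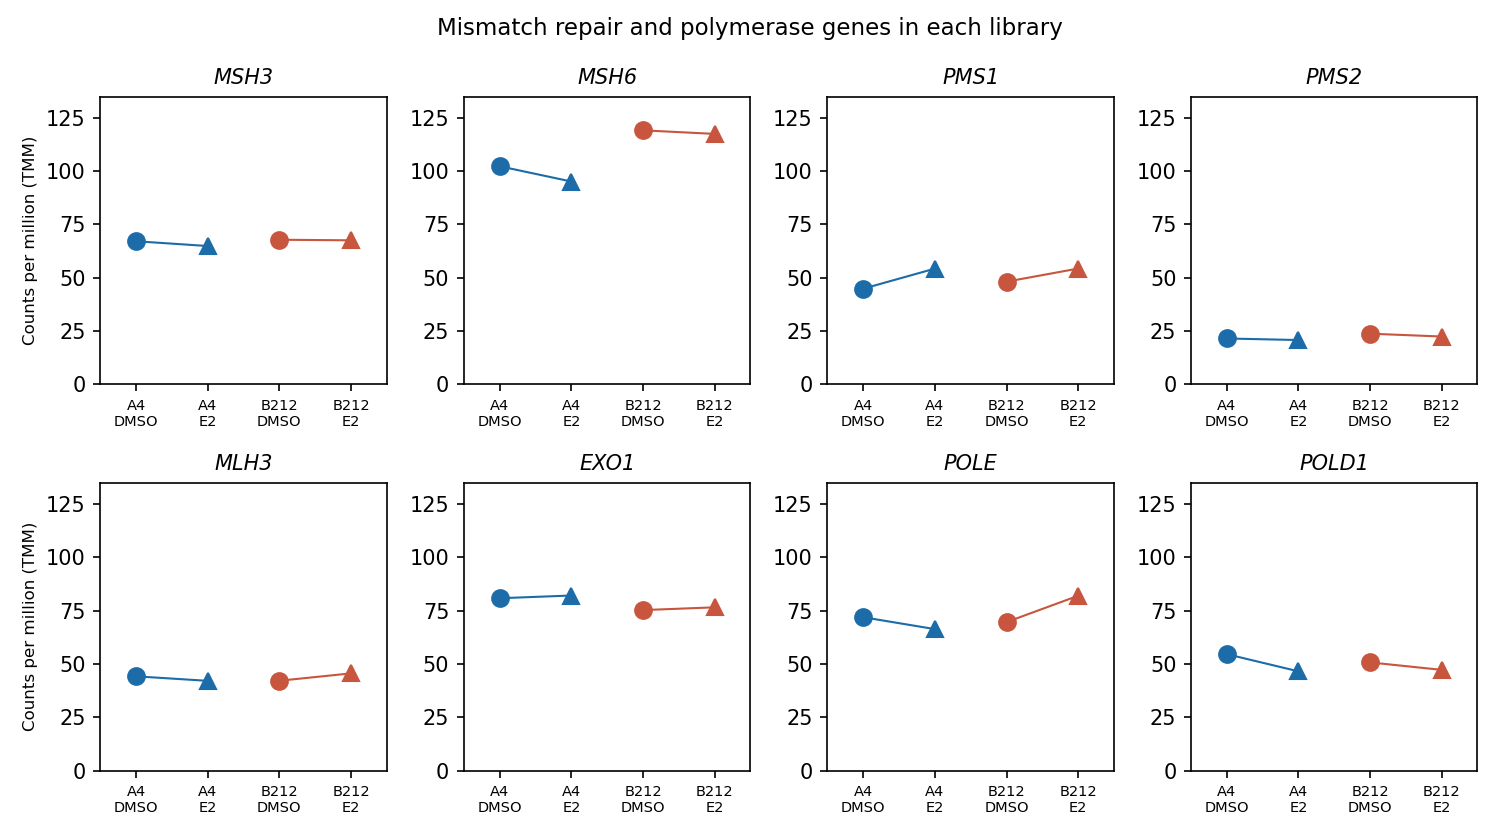
CPM (y axis, TMM-scaled, from 0) of each of the 8 genes in the 4 libraries (x axis). Blue is A4 and red is B212, circles are DMSO and triangles E2, and lines join the libraries of a tag; the B212 values of MSH6, 119 and 117, lie above its A4 values, 102 and 95.1, while MSH3 stays between 64.85 and 67.8.

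The third comparison asked whether E2 changed the members in the Y537S cells. Without a term for the tag, edgeR called 0 of the 8 members, 0 at an unadjusted p under 0.05, beside 0% of all 15599 genes (150 genes at an unadjusted p under 0.05). DESeq2 called 1 gene of all and no member, and limma-voom called 0. In that fit the spread within a treatment includes the difference between the tags. Blocking on the tag, edgeR called 9.56% of all genes and again 0 of the 8 members, of which 2 had an unadjusted p under 0.05. The share called among genes that reached 1000 counts in each library was 13.9%. With the block, the median log2 fold change was -0.0029 for the members and -0.0081 for all genes. The median absolute value was 0.061 for the members, 0.14 for all genes and 0.11 for the genes that reached 1000 counts.

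PMS1 and POLD1 were the members nearest to a call, in opposite directions. PMS1 was higher with E2 in each tag, by 0.27 in A4 and 0.17 in B212 on the log2 scale. It averaged 46.5 ± 2.33 CPM without E2 and 54.27 ± 0.017 CPM with it (SD, n = 2), and the treatments did not overlap. With the block its log2 fold change was 0.22 ± 0.075 (SE; 95% interval 0.067 to 0.38; edgeR adjusted p = 0.0659), and the correction for length and GC lowered it to 0.14 (edgeR adjusted p = 0.171). ORMDL1, a regulator of sphingolipid synthesis whose transcripts share 2.13% of the 32-base words of PMS1, had 66.0 (A4 DMSO), 79.9 (A4 E2), 59.8 (B212 DMSO) and 69.7 CPM (B212 E2). Its log2 fold change with the block was 0.25 ± 0.071 (SE; edgeR adjusted p = 0.0340), and the correction for length and GC lowered it to 0.069.

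POLD1 was lower with E2 in each tag, with log2 fold changes of -0.23 in A4 and -0.10 in B212. It averaged 52.7 ± 2.74 CPM without E2 and 46.9 ± 0.485 CPM with it (SD, n = 2), and the treatments did not overlap. With the block its log2 fold change was -0.17 ± 0.076 (SE; 95% interval -0.33 to -0.0085; edgeR adjusted p = 0.172). After the correction for length and GC it was -0.053. POLD1 has the highest GC content of the members, 65% of its transcript, against 39.9% in PMS1. The part of GC content in the POLD1 difference was not tested. Of the 32-base words of the POLD1 transcript, 11.3% also occur in transcripts of AC020909.1.

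For the other 6 members the fit with the block gave 95% intervals that include 0. These intervals measure the spread between these 4 libraries only. They ran from -0.18 to 0.12 for MSH3, from -0.21 to 0.082 for MSH6 and from -0.24 to 0.11 for PMS2, with log2 fold changes of -0.027, -0.062 and -0.067. For MLH3, EXO1 and POLE they ran from -0.14 to 0.19, from -0.12 to 0.17 and from -0.11 to 0.23, with log2 fold changes of 0.022, 0.024 and 0.060. EXO1 moved by 0.023 in A4 and 0.025 in B212. POLE moved by -0.12 in A4 and 0.24 in B212, the widest gap between the tags among the members. Both of these POLE values lay outside its interval. Corrected for length and GC, POLE was at 0.23 and was called (edgeR adjusted p = 0.0486).

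**Figure D3:**
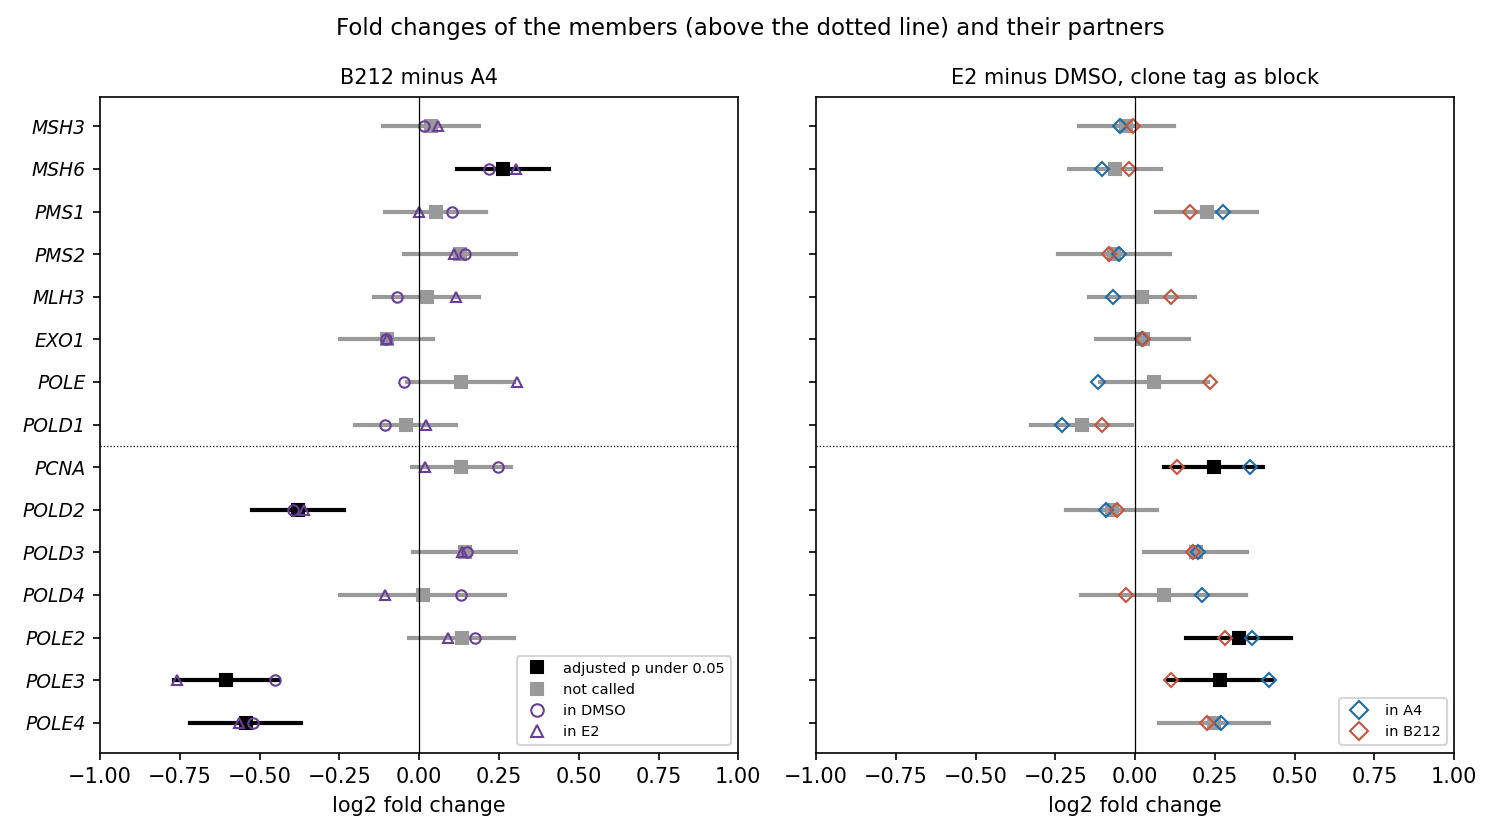
Log2 fold changes (x axis) of the 8 genes and of 7 partner genes (y axis), for B212 minus A4 (left) and for E2 minus DMSO with the tag as a block (right). Squares and bars are edgeR estimates and 95% intervals, black where the adjusted p-value is under 0.05; open symbols are single differences between 2 libraries; of the members MSH6 alone is black on the left, at 0.26, and none is black on the right.

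The surrounding pathways were counted from lists written from general knowledge. Of 11 partners in mismatch repair (PCNA, the RFC and RPA genes, LIG1 and HMGB1), edgeR called 5 between the tags, 3 higher and 2 lower in B212, beside 51% of all genes. The clamp-loader subunit RFC3 was higher by 0.62 ± 0.069 (log2, SE), RFC4 by 0.23 and RFC1 by 0.22. RFC5 was lower, at -0.27, and the single-strand binding subunit RPA2 at -0.19. With E2 and the tag as a block, 3 of the 11 were called, all higher, beside 6.13% of all genes called higher. Without the block no gene named here for E2 was called, and all had an edgeR adjusted p of 0.9999. The 3 were RPA3 at 0.38, the sliding clamp PCNA at 0.25 and RFC3 at 0.23. In single tags, RPA3 was at 0.60 (A4) and 0.17 (B212) and PCNA at 0.36 and 0.13. Of the 6 fits with the block (edgeR with 3 scalings, the length and GC correction, DESeq2 and limma-voom), RPA3 was called in 6, PCNA in 2 and RFC3 in 1. The correction for length and GC lowered PCNA to 0.072 and RFC3 to 0.082.

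Of the 10 polymerase and primase genes, 2 were called with E2 in the fit with the block, POLE2 at 0.32 and POLE3 at 0.27 (log2), and neither catalytic subunit was. The share of all genes called in that fit was 9.56%. POLE2 moved by 0.37 in A4 and 0.28 in B212, and POLE3 by 0.42 and 0.11. POLE2 was called in 4 and POLE3 in 2 of the 6 fits with the block, and after the correction for length and GC POLE2 was at 0.18 and POLE3 at 0.19. The 16 replication fork genes (the MCM2 to MCM7 helicase, CDC45, the GINS genes and others) had 0 calls with E2, with 5 at an unadjusted p under 0.05 (edgeR with the block), and 5 calls between the tags, beside 9.56% and 51% of all genes. Those were MCM6 (0.32), CDT1 (0.33) and MCM5 (0.19) higher, and GINS4 (-0.26) and CDC45 (-0.21) lower in B212.

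Proliferation genes went both ways between the tags, where 9 of 13 were called, 3 higher and 6 lower in B212, beside 25.2% of all genes called higher and 25.8% lower. E2F1 was higher by 0.51, CCNE2 by 0.38 and CCNE1 by 0.18 on the log2 scale. CCNB1 was at -0.44, CCNA2 at -0.43 and BIRC5 at -0.41. With E2 and the block, CDK1 (0.34), CCNE2 (0.30) and CCNB1 (0.27) were called, all higher, beside 6.13% of all genes. Of the 6 fits with the block, CDK1 was called in 5, CCNE2 in 3 and CCNB1 in 2, and after the correction for length and GC they were at 0.13, 0.18 and 0.15. The part of these differences in the MSH6 result was not tested.

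Other repair genes were counted in the same way, beside the same shares of all genes, 51% between the tags and 9.56% with E2 and the block. Of 13 other DNA polymerases and their cofactors, 10 were called, 7 higher and 3 lower in B212. REV3L, the catalytic subunit of polymerase zeta, was higher by 0.46 (log2), POLK by 0.30 and POLM by 0.38. MAD2L2, the partner of REV3L, was at -0.57, POLB at -0.34 and the mitochondrial polymerase POLG at -0.34. With E2 and the block 1 of the 13 was called, POLB, at 0.46 (0.27 after the correction for length and GC). Of 15 base excision and direct repair genes, 11 were called between the tags, 6 higher and 5 lower, among them NEIL1 (0.83), XRCC1 (0.35) and MGMT (0.34) higher and TDG (-0.36), NEIL2 (-0.37) and OGG1 (-0.36) lower. TDG, a glycosylase for mispaired thymine, was the 1 gene of the 15 called with E2 and the block, at 0.30. Of 15 homologous recombination genes, 2 were called between the tags, BRCA1 (0.34) and BARD1 (0.25), both higher in B212, and 0 with E2 (3 at an unadjusted p under 0.05 with edgeR and the block). MSH4, a meiotic MutS homolog, had 74 to 87 counts and was not called, and MSH5 had 0 counts in every library.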

How the data were processed

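Poly(A)-selected RNA of 2 Ishikawa ER-Y537S clones, each with DMSO or E2, was sequenced from stranded libraries of 500 ng input, per the labels' protocols. The deposited values are raw read counts per gene symbol. HISAT2, SAMtools, featureCounts, DESeq2 and the build hg19 are named in the submitters' processing notes, with no version or role; the annotation and strand setting are not given in the sources used here. The table has 4 further library columns whose names fit none of the samples, and these were not used. Columns were grouped by the treatment in their names.

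Genes were filtered with filterByExpr (minimum count 10), scaled by TMM and tested with edgeR 4.0.16 in R 4.3.3: E2 against DMSO with no block as planned, and B212 against A4 with treatment as covariate. Standard errors were derived from the F statistics. Log2 CPM of single libraries had a prior count of 2. A second fit, blocked on the tag, is printed beside the planned one: same-tag libraries deviated together from their treatment means (Pearson r = 0.871 across genes), and the pairing comes from the column names. With 2 groups of 2, r holds 1 independent value. The biological coefficient of variation was 32.2% without and 5.99% with the block.

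The members and lists were chosen with earlier results of these data known. All 8 members are named. A few partner genes of the planned lists are not reported here. Of other lists, all called genes are named where 5 or fewer were called and otherwise the 3 with the smallest p in each direction; genes tied to a member are named as well. The neighbours FBXO11, ORMDL1, PXMP2 and ACYP1 and the background of genes with 1000 counts were chosen after values were seen. ACYP1, not named above, was not called between the tags or with E2 and the block. Alternatives used DESeq2 1.42.0, limma 3.58.1 and mgcv 1.9.3 (trend on length and GC, 93.5% of tested genes with a value). Lengths came from GENCODE 29 transcripts and promoters from RefSeq (GRCh38.p14). Scripts were tested on simulated data. Figures used Python 3.11.15 and matplotlib 3.10.9.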

Additional observations from a re-analysis of the deposited data

Results flagged for a closer look

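For 2 members E2 moved the tags in opposite directions, and for 3 members the tags differed in opposite directions in DMSO and in E2. These differences were not tested, since each combination of tag and treatment had 1 library. The E2 log2 fold change of POLE was -0.12 in A4 and 0.24 in B212, and that of MLH3 was -0.071 in A4 and 0.11 in B212. The difference between the tags was 0.35 for POLE, with a 95% interval of 0.28 to 0.43 from counting error alone, and 0.18 for MLH3, with 0.088 to 0.28. The interval from counting error also excluded 0 for MSH6 (0.084), PMS1 (-0.10) and POLD1 (0.13), and included it for MSH3, PMS2 and EXO1. Counting error leaves out the spread between cultures. Seen from the other side, B212 minus A4 was -0.046 in DMSO and 0.31 in E2 for POLE, -0.069 and 0.12 for MLH3, and -0.11 and 0.021 for POLD1.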

How the results depend on the processing

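With E2 and no block, 0 members were called under both other scalings, both filters, DESeq2, limma-voom and each left-out library; for all genes DESeq2 gave 1 call, and each left-out library gave 0. With the replicate block, edgeR called 1492 genes (956 higher, 536 lower) and 0 members. Further alternatives with the block gave 614 genes (length and GC trend removed, 379 higher and 235 lower, 1 member, POLE), 562 (DESeq2, with no adjusted p for 7561 genes), 1138 (limma-voom), 717 (DESeq2 size factors) and 1686 (library size only, 911 higher and 775 lower), and no other member was called under them. Of the other genes named for E2, none was called without the block by edgeR, DESeq2 or limma-voom.

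Between the tags, the 1 member became 2 with library size only (MSH6 and POLE) and 2 with the trend removed (MSH6 and EXO1), and 0 with no treatment term, where all genes gave 4456. Leaving out libraries gave 3094 to 5639 genes and 0 to 1 members; those fits lack the treatment term and take the lone library to vary like the others. The split of all calls was 3927 higher and 4023 lower, 4761 and 3176 with library size only, and 3416 and 5045 with the trend removed.

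Some signs changed, most of them of values near 0. Others were not near 0 in the main fit with E2 and no block: POLE3 (0.30), CCNB1 (0.29), POLE4 (0.25) and RFC3 (0.22). POLD1 between the tags was 0.024 with library size only. With the trend removed MLH3, MSH3 and PMS1 were -0.072, -0.050 and -0.056 between the tags, FBXO11 was -0.048, and EXO1 was -0.024 with E2 and the replicate block. POLD4 was -0.010 with no count filter. Without single libraries, members ranged between the tags from -0.034 to 0.060 (MLH3), -0.084 to 0.18 (PMS1) and -0.16 to 0.074 (POLD1), and with E2 from -0.037 to 0.061 (MLH3), -0.22 to 0.068 (MSH6), -0.14 to 0.0062 (PMS2), -0.045 to 0.076 (EXO1) and -0.093 to 0.19 (POLE). The other named genes that changed sign ranged between the tags -0.047 to 0.31 (PCNA), -0.093 to 0.11 (POLD4), -0.043 to 0.31 (POLE2) and with E2 -0.062 to 0.57 (CCNB1), -0.28 to 0.14 (POLD2), -0.15 to 0.63 (POLE3), -0.075 to 0.54 (POLE4), -0.098 to 0.58 (RFC3). With a library left out and no block, one treatment is left with 1 tag; with the block, 3 libraries leave no residual degrees of freedom, so that fit was not run. The cause was not tested. Of 128 member values for E2 and 96 for the tags, 118 and 80 kept their sign and their side of the threshold. Other genes named between the tags lost a call in 121 of their fits, most of them with a library left out.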
